A study of Mus musculus with 6 samples.

Results

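The genes described here are 35 genes of blood coagulation and fibrinolysis, given as a fixed list: the clotting factors and their inhibitors, the plasminogen system, the receptors that control both at the vessel wall, and the genes that modify and export clotting factors. All 35 were found by symbol among the 17119 genes of the count table, and all 35 passed the filter on low counts. RNA was sequenced from 6 samples of whole mouse liver after 12 weeks on a high-fat, high-cholesterol diet (HFHCD), a diet used to bring on steatohepatitis. Every mouse carried iCre under the control of Clec4f, a gene of Kupffer cells, the macrophages resident in liver. A single Cebpb allele was floxed in 3 samples (Clec4f-iCre;Cebpbfl/+, the heterozygous livers), and the 3 wild-type samples were littermates with both alleles intact (Clec4f-iCre;Cebpb+/+). The deletion of 1 copy of Cebpb, which encodes the transcription factor C/EBPβ, is therefore directed at Kupffer cells, and hepatocytes and endothelial cells are not its target in either group. Age and sex are not in the labels.

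Clotting runs through a cascade of plasma proteases, most of them made by hepatocytes, that ends with thrombin cutting fibrinogen into fibrin. Antithrombin, heparin cofactor II and the protein C system restrain the cascade, and plasmin dissolves the clot. Sinusoidal and vascular endothelium makes factor VIII, von Willebrand factor, thrombomodulin and the endothelial protein C receptor, while tissue factor and the urokinase system are made by macrophages, stromal cells and other cells. The 35 genes were divided by these textbook sources into 22 hepatocyte-made plasma proteins, 6 endothelial genes, 3 genes of macrophages and stromal cells, and 4 genes of the secretory pathway and vitamin K cycle. Pros1 is made by hepatocytes and by endothelium and was counted with the hepatocyte-made genes.

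The libraries held 16895322 to 17750755 counts, and levels below are CPM, counts scaled to a common library size with TMM factors. Log2 fold changes (heterozygous minus wild-type on the log2 scale) carry their SE, and means are given ± SD (n = 3 libraries a group). The tissue label was checked against hepatocyte markers, of which 10 of 11 listed symbols were in the table, with Alb at 66248 to 95207 CPM. Cebpb itself measured 506, 308 and 340.4 CPM in the wild-type group against 204, 498 and 269 CPM in heterozygous livers, with overlap (−0.25 ± 0.37, edgeR adjusted p = 0.864), in RNA to which all liver cells contribute, so it does not check the Kupffer cell deletion. Wild-type replicate 1 stood apart in hepatic acute phase genes, which liver cells raise in inflammation: 17 listed genes other than the clotting genes summed to 42628 CPM there, against 17172 and 20212 CPM in the remaining wild-type libraries and 13595, 20370 and 14161 CPM in heterozygous replicates 1 to 3. The labels do not tie each sample to its own animal, so that p-values reflect only the spread among these 6 samples, which may be technical.

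None of the 35 genes passed an edgeR adjusted p of 0.05 in the comparison of heterozygous with wild-type livers, a threshold that 0.582% of the 12706 tested genes passed (0.559% with a lower level in heterozygous livers). At an unadjusted edgeR p under 0.05 there were 5 genes, Procr, Plaur, Pros1, Klkb1 and Plat, against 13.2% of all tested genes, so the share among the 35 was close to the background. DESeq2 called 2, Procr and Plaur, both lower in heterozygous livers, against 3.99% of 13118 genes. Limma-voom called 0 of the 35 and 0 of all tested genes. All libraries of one group lay above all of the other for 7 of the 35, the 5 above plus Proc and Ggcx, against 18.4% of all genes.

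The 22 hepatocyte-made genes had a median log2 fold change of −0.07, with 15 negative and 7 positive, and the 12706 tested genes a median of 0.00. With 1 library left out the hepatocyte-made median ran from −0.15 (without heterozygous replicate 2) to 0.00465 (without wild-type replicate 1). For 19 of the 22 the 95% interval of the fold change lay within 2-fold in either direction, as it did for 75.5% of all genes, and the 3 exceptions were the fibrinogen genes. The 6 endothelial genes had a median of 0.30 with 4 positive and 2 strongly negative values, and the median was −0.46 without heterozygous replicate 2 and −0.11 with wild-type replicate 1 also left out. All 3 macrophage and stromal genes were negative with a median of −0.56. The 4 secretory and vitamin K genes were all positive with a median of 0.11. Whether the classes differ from each other was not tested. The largest differences, in Procr, Plaur and Plat, thus lay in genes that hepatocytes are not the main source of, and those genes rest on few reads: the 9 endothelial, macrophage and stromal genes had 7 to 411 counts a library, the hepatocyte-made genes 797 to 196926.

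**Figure D1:**
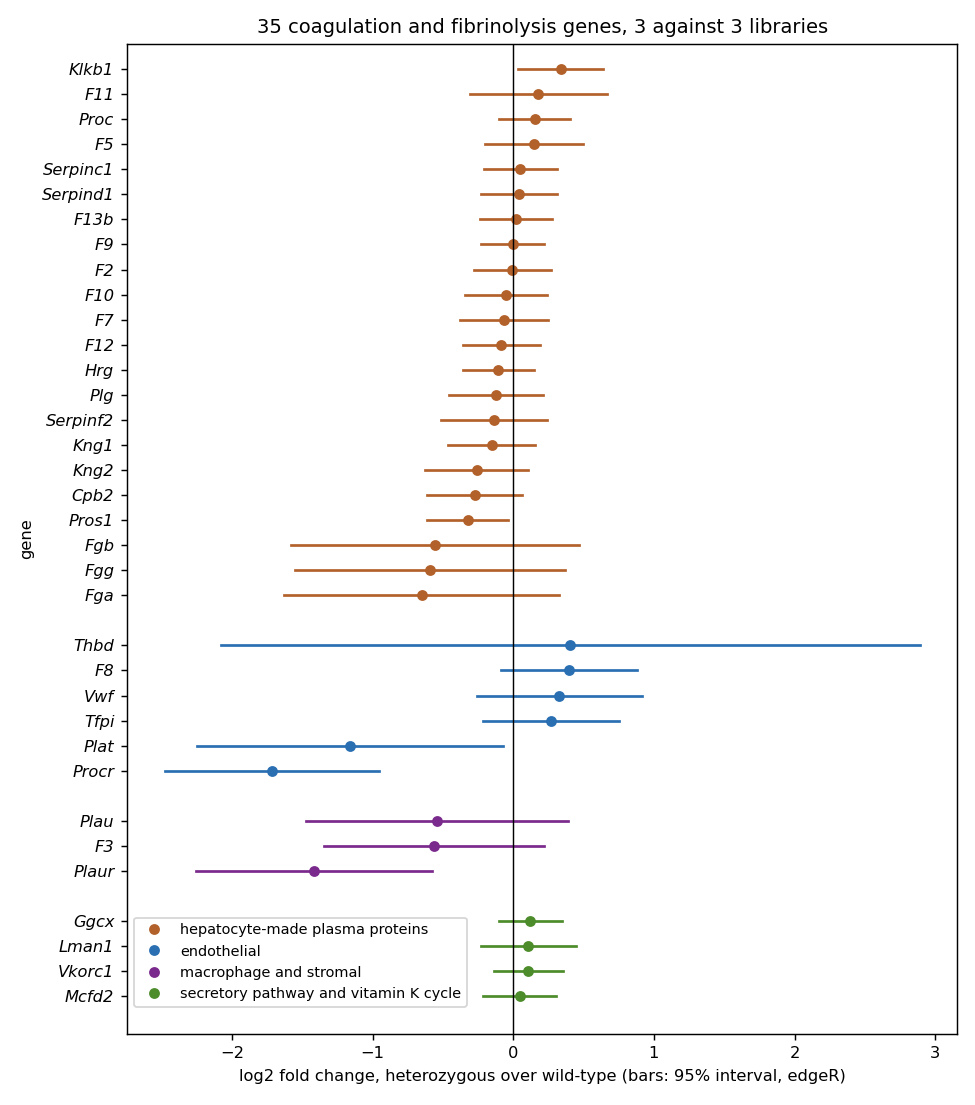
Log2 fold change of each of the 35 genes (points) with its 95% interval from edgeR (bars), heterozygous over wild-type, 3 libraries a group, coloured by the cells known to make the protein. Most hepatocyte-made genes lie close to 0 with short bars, the 3 fibrinogen genes have long bars that cross 0, and Procr (−1.72), Plaur (−1.42) and Plat (−1.16) lie farthest to the left.

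Fibrinogen is assembled from 3 chains, encoded by Fga, Fgb and Fgg, which lie next to each other on chromosome 3 within 42.1 kb (RefSeq, build GRCm38.p6). Their promoters are shown because the 3 genes moved together from library to library. They are the 250 bases before the annotated start, at chr3:83007474-83007723 on the + strand for Fgg, chr3:83025903-83026152 on the + strand for Fga and chr3:83049864-83050113 on the − strand for Fgb (RefSeq, GRCm38.p6; the counts were made on GRCm39). Capitals mark 2 motifs searched on both strands, CTGGGAA, the core of interleukin-6 response elements, and TTNNGNAA, a loose core of sites for C/EBP factors; no match of one overlapped a match of the other.
Fgg: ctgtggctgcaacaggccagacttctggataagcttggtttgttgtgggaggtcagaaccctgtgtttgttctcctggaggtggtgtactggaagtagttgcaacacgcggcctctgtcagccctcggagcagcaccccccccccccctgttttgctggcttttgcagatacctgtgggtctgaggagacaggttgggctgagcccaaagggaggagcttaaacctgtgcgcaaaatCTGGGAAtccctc
Fga: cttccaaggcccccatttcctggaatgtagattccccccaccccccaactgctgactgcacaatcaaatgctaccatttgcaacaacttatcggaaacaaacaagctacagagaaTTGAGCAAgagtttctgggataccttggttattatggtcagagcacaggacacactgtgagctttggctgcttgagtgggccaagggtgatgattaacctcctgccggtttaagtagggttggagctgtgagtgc
Fgb: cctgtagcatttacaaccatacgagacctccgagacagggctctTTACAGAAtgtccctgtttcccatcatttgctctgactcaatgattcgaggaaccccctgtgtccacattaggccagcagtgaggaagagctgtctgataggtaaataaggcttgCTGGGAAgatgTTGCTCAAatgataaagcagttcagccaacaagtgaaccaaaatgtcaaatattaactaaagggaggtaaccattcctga
CTGGGAA was found once in Fgg, 13 bases before the start, and once in Fgb, 91 bases before it, and TTNNGNAA once in Fga and in 2 places in Fgb. Among all 32851 promoters of this length 9.10% held CTGGGAA and 36.85% held TTNNGNAA, so a match to the second motif is common. Of the 27 coagulation genes with a promoter in the table, 4 held the first (F9, Fgb, Fgg and Tfpi) and 14 the second. A gene was counted if any of its listed promoters matched, whereas the shares are of single promoters. The counts therefore cannot be set against those shares. A match is a description of the letters and not evidence of binding.

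In CPM, Fga was at 11680, 4135 and 6808 in replicates 1, 2 and 3 of the wild-type and at 3899, 6464 and 4033 in those of the heterozygous group. Fgb measured 12011, 4211 and 6379 CPM in the wild-type group against 4216, 7019 and 4152 CPM in heterozygous livers. Fgg measured 8602, 2954 and 4857 CPM in the wild-type group against 3053, 4644 and 3182 CPM in heterozygous livers. For all 3 genes the level was highest in wild-type replicate 1, next highest in wild-type replicate 3 and heterozygous replicate 2, and lowest in the remaining 3 libraries, so the groups overlapped. The log2 fold changes of −0.65 ± 0.40, −0.55 ± 0.42 and −0.59 ± 0.40 were within the spread between libraries (edgeR adjusted p = 0.592, 0.685 and 0.627). Without wild-type replicate 1 they were −0.17, −0.03 and −0.09, and with heterozygous replicate 2 also left out −0.45, −0.33 and −0.31. The summed level of the acute phase genes was highest in the same 3 libraries, but not every gene had that order. Saa3, for instance, was lowest in heterozygous replicate 2, at 13.3 CPM. All 17 acute phase genes had a negative fold change (median −0.68, 0 past the threshold, 6 at an unadjusted edgeR p under 0.05, against 13.2% of all tested genes). Their part in the fibrinogen values was not tested.

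While their level varied, the proportion of the 3 chains hardly did. Together the fibrinogen genes took 2.98% of all counts in wild-type replicate 1, against 1.18% in wild-type replicate 2, 1.87% in wild-type replicate 3 and 1.12%, 1.77% and 1.17% in the heterozygous libraries. Fga made up 34.9% to 37.7% of the 3 genes' counts, Fgb 35.4% to 38.7% and Fgg 25.6% to 27.99%. The other 32 genes together stayed between 1.45% and 1.58% of all counts in the 6 libraries, so nearly all of the variation in the summed counts of the 35 genes lay in fibrinogen.

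**Figure D2:**
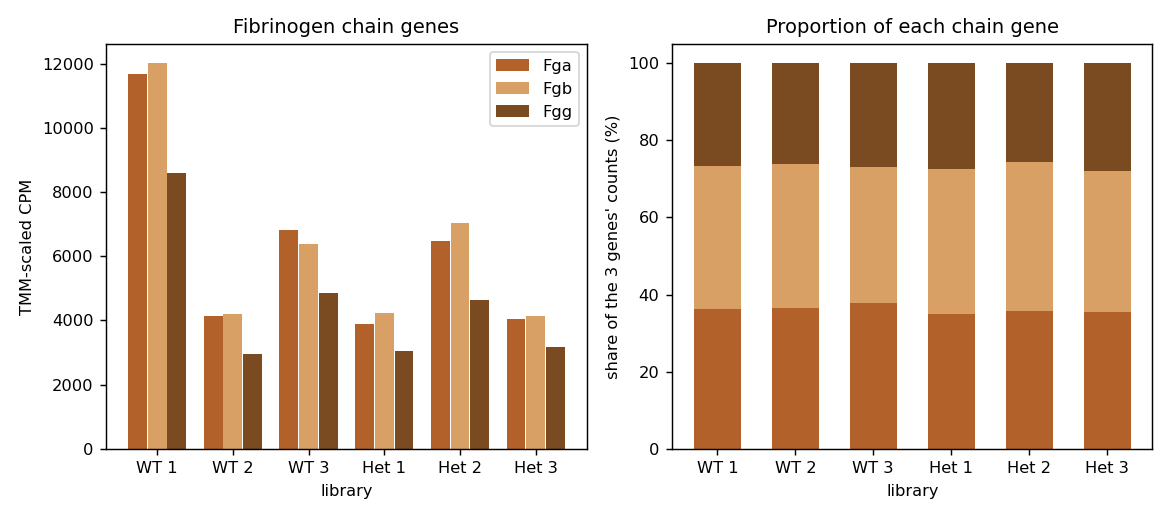
Left, TMM-scaled CPM of Fga, Fgb and Fgg in each library (bars; WT, wild-type; Het, heterozygous); right, the share of each gene in the counts of the 3 (stacked bars, in %). The level in wild-type replicate 1 stands far above the others, with Fga at 11680 CPM against 3899 CPM in heterozygous replicate 1, while the proportions stay level across libraries.

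The 6 vitamin K-dependent genes, whose proteins need γ-carboxylation to bind membranes, had a highest library under 1.5 times the lowest in 5 cases, all but Pros1. F2, the prothrombin gene, measured 2018 ± 133 CPM in the wild-type group against 2008 ± 142 CPM in heterozygous livers (log2 fold change −0.01, 95% interval −0.28 to 0.27). F9, the factor IX gene whose loss causes haemophilia B, varied least of all 35 genes, by 1.08 times from the lowest to the highest library (172 ± 2.96 and 171 ± 6.96 CPM, interval −0.23 to 0.22). F7, which starts the cascade with tissue factor, and F10, where its extrinsic and intrinsic arms meet, had log2 fold changes of −0.06 ± 0.14 and −0.05 ± 0.13.

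Protein C and its cofactor protein S, the vitamin K-dependent brakes on factors V and VIII, gave opposite signs. Proc, the protein C gene, measured 683, 618 and 599.7 CPM in the wild-type group against 684, 691 and 736 CPM in heterozygous livers. The groups lay side by side without overlap, with wild-type replicate 1 just below heterozygous replicate 1, and the difference of 0.15 ± 0.11 missed the threshold (edgeR adjusted p = 0.657). Pros1, the protein S gene, measured 80.6, 68.1 and 68.1 CPM in the wild-type group against 53.2, 65.9 and 54.1 CPM in heterozygous livers. Every heterozygous library was below every wild-type one, at a log2 fold change of −0.32 ± 0.13 that missed the threshold (edgeR adjusted p = 0.309). The interval of Pros1 reached from −0.61 to −0.04.

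The contact system starts clotting on negatively charged surfaces and releases bradykinin. Klkb1, the plasma prekallikrein gene, measured 172, 234 and 220.2 CPM in the wild-type group against 261, 265 and 264 CPM in heterozygous livers. The heterozygous libraries agreed closely and all exceeded the wild-type ones, with replicate 1 the lowest; the value of 0.34 ± 0.13 missed the threshold (edgeR adjusted p = 0.315) and was 0.23 without that library. F12, the factor XII gene, measured 641 ± 32.7 and 604 ± 62.0 CPM (−0.09 ± 0.12). F11, the factor XI gene, was at 82.6, 72.3 and 43.6 CPM in the wild-type group against at 74.8, 79.3 and 70.6 CPM in heterozygous livers, so that its positive value of 0.18 ± 0.21 rested on wild-type replicate 3 and became −0.05 without it. The kininogen genes, which encode the bradykinin precursors, both had negative values that did not pass. Kng2 measured 263, 186 and 196 CPM in the wild-type group against 153, 197 and 188 CPM in heterozygous livers, with overlap between the groups (−0.26 ± 0.16, edgeR adjusted p = 0.569). Kng1 measured 1794 ± 225 and 1612 ± 140 CPM (−0.15 ± 0.14). Without wild-type replicate 1 the values were −0.0702 for Kng2 and −0.0271 for Kng1.

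Among the remaining cascade genes, F5, which encodes the cofactor of factor Xa, measured 393 ± 33.4 and 435 ± 80.2 CPM (0.15 ± 0.15), and F13b, the carrier subunit of the fibrin cross-linking enzyme, 148 ± 10.8 and 150 ± 12.3 CPM (0.02 ± 0.11). The plasma inhibitors of thrombin had values close to 0. Serpinc1, the antithrombin gene, measured 2091 ± 136 and 2163 ± 48.7 CPM (0.05 ± 0.12, interval −0.21 to 0.31), and Serpind1, the heparin cofactor II gene, 556 ± 11.1 and 572 ± 62.8 CPM (0.04 ± 0.12).

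The plasma genes of fibrinolysis all had small negative values. Plg, the plasminogen gene, measured 2569 ± 294 and 2360 ± 337 CPM (−0.12 ± 0.15), and Serpinf2, which encodes the plasmin inhibitor α2-antiplasmin, 1028 ± 148 and 933 ± 174 CPM (−0.14 ± 0.17). Hrg, the histidine-rich glycoprotein gene, measured 1112 ± 38.6 and 1033 ± 49.1 CPM (−0.11 ± 0.11). Cpb2 encodes the carboxypeptidase TAFI, which protects fibrin from plasmin. It measured 662, 472 and 502 CPM in the wild-type group against 476, 460.3 and 416 CPM in heterozygous livers, with wild-type replicate 1 on top and wild-type replicate 2 below heterozygous replicate 1 (−0.27 ± 0.15, edgeR adjusted p = 0.498). Without wild-type replicate 1 the values were −0.09 for Cpb2, −0.00407 for Plg, −0.0170 for Serpinf2 and −0.11 for Hrg.

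The genes that process clotting factors were steady. Ggcx, the γ-carboxylase gene, measured 69.9 ± 1.59 and 76.1 ± 4.10 CPM (0.12 ± 0.10), and Vkorc1, which regenerates vitamin K and is the target of warfarin, 156 ± 12.0 and 168 ± 8.14 CPM (0.11 ± 0.11). Lman1 and Mcfd2, whose proteins form the cargo receptor that carries factors V and VIII out of the endoplasmic reticulum, had values of 0.11 ± 0.15 and 0.05 ± 0.12. The highest library was under 1.5 times the lowest for all 4, for 14 of the 22 hepatocyte-made genes, for 0 of the 9 endothelial, macrophage and stromal genes and for 47.9% of all tested genes.

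The endothelial genes did not move together. Procr encodes the endothelial protein C receptor, which holds protein C for activation by thrombin and thrombomodulin. Its level was 4.15, 8.32 and 3.94 CPM in the wild-type libraries (replicates 1, 2 and 3), from 68, 153 and 72 counts, and 1.63, 1.51 and 1.84 CPM in the heterozygous ones, from 28, 25 and 32 counts. All heterozygous libraries lay below all wild-type libraries, and wild-type replicate 2 was the highest. Its log2 fold change of −1.72 ± 0.34, a 3.29-fold difference with an interval of −2.48 to −0.96, had the smallest p of the 35 genes and narrowly missed the threshold in edgeR (adjusted p = 0.0561). DESeq2 called it (adjusted p = 0.000631), and so did edgeR with no filter on low counts (adjusted p = 0.0258), while limma-voom did not (adjusted p = 0.118). Without wild-type replicate 2 the log2 fold change was −1.28 (edgeR adjusted p = 0.148). In whole liver, fewer cells of a type and less RNA per cell cannot be told apart.

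Of 10 vascular endothelial markers 5 were negative and 5 positive (median 0.07, 0 past the threshold), and they summed to 206, 258 and 218 CPM in the wild-type group against 181, 193 and 200.3 CPM in heterozygous livers, without overlap. By the mean over the 6 libraries their most abundant genes were Eng and Ly6a (in heterozygous livers Eng and Cdh5), and Ly6a, which leukocytes also express, had its highest level in wild-type replicate 2 as Procr did (85.0 CPM, against 30.9 to 44.7 CPM in the other wild-type libraries and 14.8 to 25.004 CPM in heterozygous livers). With Ly6a left out, the sums of the vascular markers overlapped between the groups. Singly, 4 of the 10 did not overlap, against 18.4% of all tested genes: Ly6a, Pecam1 and Cd34 were lower in heterozygous livers and Tek higher. DESeq2 called 2, Ly6a and Tek, against 3.99% of the genes it gave an adjusted p. The 10 sinusoidal markers had a median of 0.16 and summed to 324 to 381 CPM in the wild-type group against 340.5 to 461 CPM in heterozygous livers, with overlap. No listed endothelial marker was at 0. Macrophage and monocyte markers, described below, were as a sum also highest in wild-type replicate 2. They summed to 621, 1096 and 651 CPM in the wild-type group against 277, 305 and 285 CPM in heterozygous livers, without overlap. The part of the endothelial or the macrophage markers in the Procr value was not tested.

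Plat, which encodes tissue plasminogen activator, measured 2.13, 2.18 and 2.52 CPM in the wild-type group against 0.408, 0.727 and 1.89 CPM in heterozygous livers. Wild-type libraries were alike and heterozygous ones ranged over 4.64 times, from 7 to 33 counts. At −1.16 ± 0.48 on the log2 scale it missed the threshold (edgeR adjusted p = 0.343) and ran from −0.77 without heterozygous replicate 1 (adjusted p = 0.755) to −1.99 without heterozygous replicate 3 (adjusted p = 0.0667).

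The other 4 endothelial genes had positive values. F8, the factor VIII gene, made in liver by sinusoidal endothelium, measured 9.64, 9.58 and 11.5 CPM in the wild-type group against 11.2, 18.2 and 11.1 CPM in heterozygous livers. Only heterozygous replicate 2 stood above the wild-type range (0.40 ± 0.21, edgeR adjusted p = 0.496), and without it the value was 0.13. That library was the highest for Vwf, the von Willebrand factor gene (6.93 ± 1.103 and 8.72 ± 3.11 CPM, 0.33 ± 0.26), for Tfpi, which encodes the inhibitor of tissue factor (4.71 ± 0.67 and 5.68 ± 0.94 CPM, 0.27 ± 0.21), and for the sinusoidal markers, at 461 CPM. Without it the values were 0.00758 for Vwf and 0.18 for Tfpi. Thbd, the thrombomodulin gene, had the widest range of the 35. It measured 15.7, 3.75 and 6.07 CPM in the wild-type group against 3.20, 24.9 and 5.68 CPM in heterozygous livers, with wild-type replicate 1 and heterozygous replicate 2 far above the rest. Its interval of −2.08 to 2.89 leaves the direction undetermined, and the log2 fold change of 0.41 became −0.93 without heterozygous replicate 2.

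Plaur encodes the urokinase receptor of monocytes and macrophages. It measured 4.57, 2.39 and 2.19 CPM in the wild-type group, from 75, 44 and 40 counts, and 0.874, 1.33 and 1.20 CPM in heterozygous livers, from 15, 22 and 21 counts. The groups did not overlap, with wild-type replicate 1 the highest, and the log2 fold change of −1.42 ± 0.37 was a 2.67-fold difference (interval −2.25 to −0.58). It did not pass in edgeR (adjusted p = 0.122) and passed in DESeq2 (adjusted p = 0.0351), and without wild-type replicate 1 it was −0.99 (edgeR adjusted p = 0.279). Plau, which encodes urokinase itself, measured 2.52 ± 0.71 and 1.73 ± 0.95 CPM and overlapped between groups (−0.54 ± 0.41). F3, the tissue factor gene, measured 2.87, 6.26 and 4.32 CPM in the wild-type group against 3.49, 1.94 and 3.67 CPM in heterozygous livers, also with overlap (−0.56 ± 0.34, edgeR adjusted p = 0.565). With 1 library left out F3 ran from −0.78 (without wild-type replicate 1) to −0.24 (without wild-type replicate 2), and Plau from −1.08 (without heterozygous replicate 3) to −0.28 (without heterozygous replicate 2).

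Macrophage and monocyte markers were lower in the same direction as Plaur. All 15 had negative values with a median of −1.30, and for 12 the groups did not overlap, against 18.4% of all tested genes (11.3% lower). The threshold was passed by 4 (Cd68, Lyz2, Ccr2 and Spi1), against 0.582% of all tested genes (0.559% lower). None of the 4 passed in limma-voom (adjusted p = 0.0756, 0.0549, 0.0549 and 0.0756), or in edgeR with the replicate number as a block or without heterozygous replicate 1 or 2, where 0 genes in all did. They summed to 621, 1096 and 651 CPM in the wild-type group against 277, 305 and 285 CPM in heterozygous livers, led by Lyz2 and Cd5l, and none was at 0. Plaur and the marker sum were not ordered alike among the wild-type libraries: Plaur was highest in replicate 1 and the markers in replicate 2. The 5 tested neutrophil markers had a median of −1.25 with 1 past the threshold (Csf3r), against 0.582% of all tested genes. Stellate cell and fibroblast markers, of cells that can also express F3 and Plau, had a median of −0.53 over 10 genes. The part of these cells in the Procr, Plaur, Plau and F3 values was not tested.

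**Figure D3:**
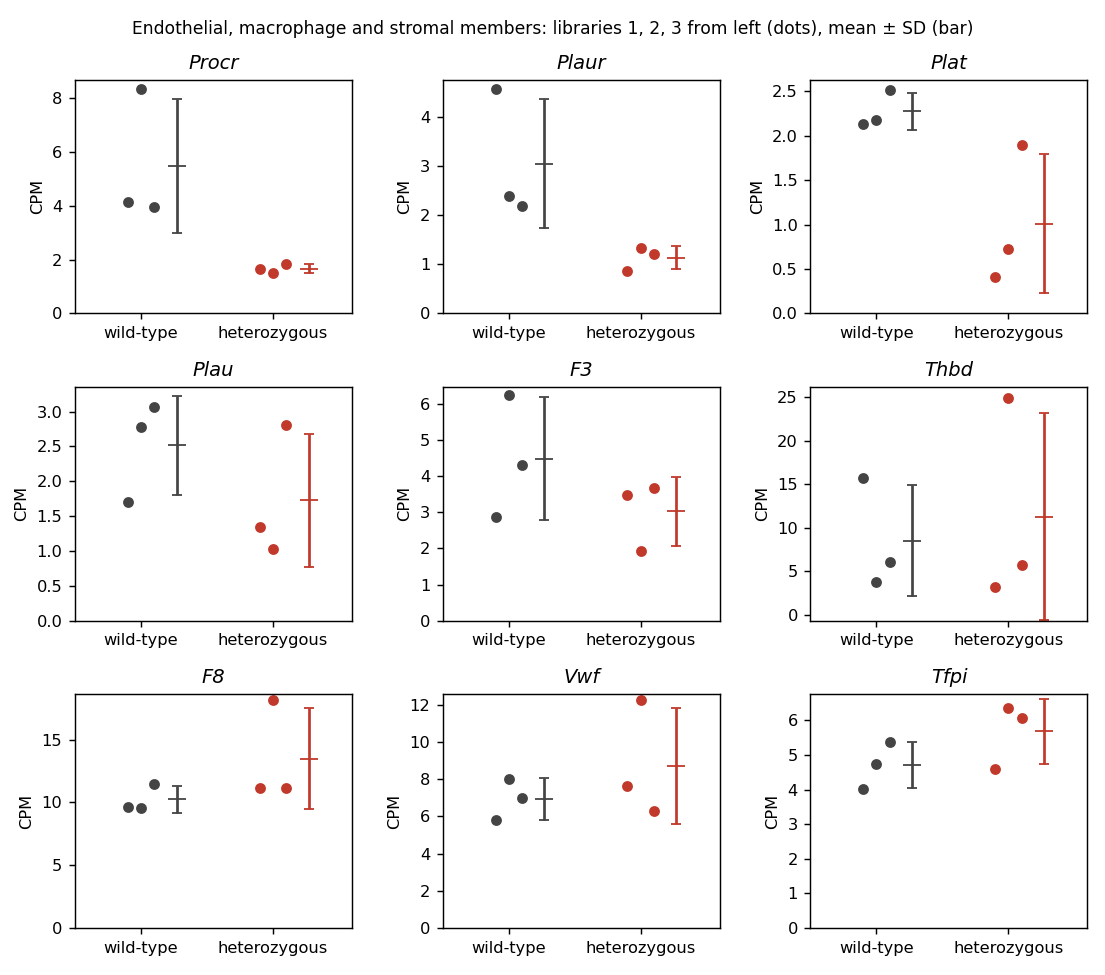
CPM of the 9 endothelial, macrophage and stromal genes in each library (dots, replicates 1, 2 and 3 from left to right) with the mean and SD of each group (bars, n = 3). Procr, Plaur and Plat show no overlap between groups, the other 6 genes do, and Thbd has 1 high library in each group, at 15.7 and 24.9 CPM.

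Set per length of transcript, the levels spanned 3 orders of magnitude. The fibrinogen genes led, with median levels over the 6 libraries of 2248 (Fgg), 2048 (Fga) and 1390 (Fgb) CPM per kb, followed by F2 (989.9), Plg (870.2), Kng1 (749.5) and Hrg (622). Neighbours in this order often do not differ beyond their spread, as with Fgg and Fga, which both varied by about 3 times. Pros1, at 20.3 CPM per kb, was the lowest of the hepatocyte-made genes, and Tfpi, at 2.49 CPM per kb, the highest of the others outside the secretory group. Plat was the lowest of all at 0.797 CPM per kb. Among the hepatocyte-made genes the fibrinogen trio varied most: the highest library exceeded the lowest by 2.89 to 2.996 times, against 1.89 times at most (F11) for the other 19 hepatocyte-made genes.

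**Figure D4:**
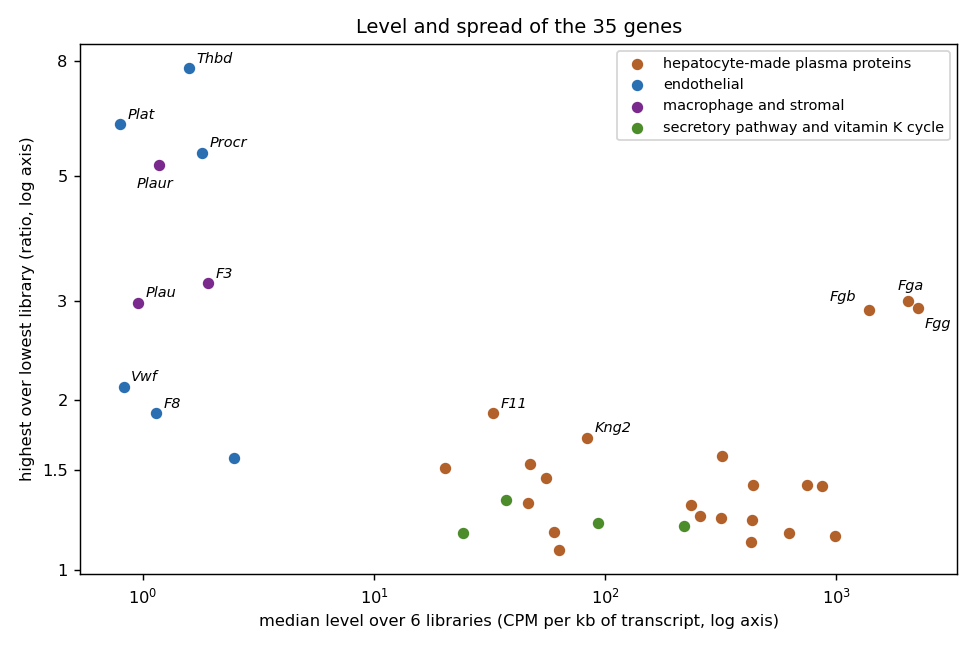
Median level over 6 libraries (x axis, CPM per kb of transcript, log scale) against the ratio of the highest to the lowest library (y axis, log scale) for the 35 genes, coloured by source. Hepatocyte-made genes lie to the right and mostly under 1.5, fibrinogen stands at the far right near 3, and the low-level genes to the left range from 1.58 (Tfpi) to 7.77 (Thbd).

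Several of the hepatocyte-made genes are neighbours in the genome and differ in how steady the ratio of their counts was. Pairs of distant genes were not compared, so a steady ratio does not show that neighbours varied together. From the lowest to the highest library, F7 alone varied by only 1.315 times and F10 by 1.304 times. F7 and F10, 1.5 kb apart on chromosome 8, kept a ratio of counts of 0.183 to 0.214 in all 6 libraries. F11 and Klkb1, a pair of related genes 4.6 kb apart on the same chromosome, did not: their ratio ran from 0.198 in wild-type replicate 3 to 0.482 in wild-type replicate 1. Kng1 and Kng2, 29.1 kb apart on chromosome 16 with Hrg beside them, kept a ratio of 7.79 to 9.46. Their transcripts are 91.1% identical over 2256 aligned bases, so the authors' counting could have split reads of one to the other, and their separate values are uncertain.

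Other genes of the same pathways, 24 in all, were examined from a separate list. Of these, 19 were tested and 0 passed the edgeR threshold in either direction, against 0.582% of all tested genes. At an unadjusted edgeR p under 0.05 there were 3, all negative, against 13.2% of all tested genes in either direction and 9.0% lower in heterozygous livers. DESeq2 called 2, against 3.99% of the genes it gave an adjusted p. Limma-voom called 0. Entpd1, which encodes the ADP-degrading enzyme CD39 of endothelium and leukocytes, measured 18.0, 16.5 and 14.0 CPM in the wild-type group against 5.82, 9.09 and 8.54 CPM in heterozygous livers. The groups did not overlap, and the value of −1.05 ± 0.19 missed the threshold as narrowly as Procr (edgeR adjusted p = 0.0539; DESeq2 adjusted p = 0.000608). Serping1, the C1 inhibitor gene that restrains the contact system, measured 1344 ± 69.7 and 1012 ± 88.2 CPM (−0.41 ± 0.12, edgeR adjusted p = 0.160; DESeq2 adjusted p = 0.0487). F13a1, which encodes the catalytic factor XIII subunit of macrophages and platelets, measured 0.744 ± 0.203 and 0.276 ± 0.154 CPM (−1.41 ± 0.54). That value rests on 16, 12 and 11 counts in the wild-type libraries against 2, 7 and 5 in the heterozygous ones. Serpine2, the protease nexin gene, measured 13.3 ± 2.13 and 21.6 ± 8.78 CPM (0.70 ± 0.31).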

How the data were processed

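Titles gave groups and replicate numbers. In the genotype field the number in the Cre driver's name rises from replicate 1 to 3, while the series design has Clec4f for all, and the design was followed. The authors deposited raw counts, whole reads per gene symbol; Trimmomatic 0.36, HISAT2 2.2.1.0, HTSeq 0.9.1 and GRCm39 are named per the submitters' processing notes, and for the annotation and strand setting the sources used here give nothing, so overlapping or antisense genes are uncertain. All 6 columns were used; 0 rows lacked a symbol.

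With edgeR 4.0.16 in R 4.3.3, low counts were removed (filterByExpr), libraries scaled by TMM (factors 0.924 to 1.041) and genes tested by quasi-likelihood (glmQLFit, glmQLFTest, robust) without covariates, with Benjamini-Hochberg adjustment over all 12706 genes; the test was checked on simulated counts. SE is the absolute log2 fold change divided by √F. The 95% intervals come from the t distribution with the test's total degrees of freedom (residual plus prior, moderated across genes). DESeq2 1.42.0 and limma 3.58.1 (voom) were alternatives, with RLE and upper-quartile scaling, other filters, a non-robust fit, the replicate number as a block, a threshold of 0.10 and left-out libraries. Lengths are of the GENCODE vM21 transcript with the longest coding sequence, identities from blastn 2.17.0, promoters from RefSeq (27 of 35 matched). Deviations of same-numbered libraries from their group means had correlations of −0.21, −0.31 and 0.19, and the numbers were taken as names only. No libraries agreed within sampling noise (chi-square per degree of freedom 23.3 to 113.9).

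Members, lists, tests and alternatives were chosen with earlier results of these data known. Values in all libraries are given for the 12 members with the smallest p and the fibrinogen genes; F11 and Thbd were added after their values were seen. Other pathway genes named are the 4 with the smallest p.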

Additional observations from a re-analysis of the deposited data

How the results depend on the processing

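With 3 libraries a group, the number of calls depended on the method, while the members' directions mostly did not. Over all genes edgeR called 74, against 37 with upper-quartile scaling, 48 with at least 1 CPM in 3 samples, 211 with no filter, 523 in DESeq2, 325 at a threshold of 0.10, 20 with a non-robust fit, 4 with wild-type replicate 1 and heterozygous replicate 2 both left out, and 0 in limma-voom and with the replicate number as a block (1686 and 1427 at an unadjusted p under 0.05). Leaving out 1 library gave 0 to 122 calls, with 0 without heterozygous replicate 1 or 2 (1104 and 1601 at an unadjusted p under 0.05). Of the 35 members, 0 passed under the replicate block or with any 1 library left out. With no filter and at 0.10, 1 passed (Procr), and in DESeq2 2 (Procr and Plaur). Of the other pathway genes, 1 passed with no filter and at 0.10 (Entpd1) and 2 in DESeq2 (Entpd1 and Serping1). In the block fit Procr had an edgeR adjusted p of 0.184, and 1 of the 3 replicate numbers correlated best with itself.

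The median log2 fold change of the endothelial members ran from −0.46 (without heterozygous replicate 2) to 0.42 with 1 library left out, and was −0.11 without both libraries named above. That of the macrophage and stromal members ran from −1.08 (without heterozygous replicate 3) to −0.32. Members whose sign changed all had values near 0 or rested on 1 library. F2 was at 0.000476 with RLE scaling, 0.01326 with no filter, 0.00586 in DESeq2 and 0.00306 without both libraries, and between −0.0634 and 0.0676 with 1 left out. F9 was at 0.00238, 0.0153 and 0.00773 in the first 3 of these and between −0.0354 and 0.0228 with 1 left out. With 1 library left out, F7 lay between −0.17 and 0.0744, F10 between −0.13 and 0.0760, F11 between −0.0485 and 0.39, F13b between −0.0497 and 0.0844, Serpind1 between −0.0416 and 0.12, Mcfd2 between −0.0131 and 0.15 and Thbd between −0.93 and 1.21. Without both libraries F10 was at 0.0259, F13b at −0.0629, Serpind1 at −0.0226, Thbd at −0.13 and Vwf at −0.0937. Of 525 values of single members under alternatives, 28 changed sign, 3 newly passed the threshold and 494 did neither. The cause of these changes was not tested. The median half-width of the 95% interval was 0.68 for the endothelial members and 0.84 for the macrophage and stromal ones, which had 7 to 411 counts a library, against 0.31 for hepatocyte-made genes. The part of depth in these widths was not tested, and the fibrinogen genes, with far more counts, reached 1.02.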

Other observations

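Of 9 listed platelet genes, 4 were tested and 0 passed the edgeR threshold, with 1 at an unadjusted p under 0.05 and 1 called by DESeq2, in both cases Ppbp, which encodes platelet basic protein. Over all genes the shares were 0.582%, 13.2% and 3.99%, in that order. Ppbp measured 0.976, 1.03 and 2.46 CPM in the wild-type group against 0.233, 0.121 and 0.401 CPM in the heterozygous one (−2.53 ± 0.58, edgeR adjusted p = 0.0876; DESeq2 adjusted p = 0.0120). These values rest on few reads, 16, 19 and 45 counts against 4, 2 and 7. Pf4, the platelet factor 4 gene, measured 1.24 ± 0.78 and 0.846 ± 0.259 CPM. The integrin genes Itga2b and Itgb3 were more abundant and overlapped between groups. Itga2b measured 5.52 ± 0.987 and 5.86 ± 0.860 CPM, with a positive value (0.09 ± 0.21), and Itgb3 10.6 ± 4.18 and 5.84 ± 4.09 CPM (−0.86 ± 0.52).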
